A study of Homo sapiens with 24 samples.

Results

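The 10 genes described here are CDK1, CCNB1, CCNB2, CCNA2, PLK1, AURKA, AURKB, BIRC5, CDC25C and WEE1. They encode the kinase that drives entry into mitosis, cyclins it binds, enzymes that set its activity, and kinases and a partner protein that act with it. They were taken by symbol from the 28307 genes of the count table, in which each of the 10 had 1 row. The study treated the breast cancer line SUM159 and the colon cancer line SW620 for 30 h with nifuroxazide (NIF), a nitrofuran antibiotic, or with the vehicle DMSO. After treatment the cells were sorted by aldehyde dehydrogenase (ALDH) activity into ALDHbr cells, called ALDHpos in the labels and treated there as cancer stem cells, and ALDHneg cells, and total RNA was sequenced. The 8 groups, made by 2 lines, 2 sorts and 2 treatments, held 3 libraries each, from experiments the methods describe as independent, or 24 libraries in all. Within a line no genetic change distinguished the groups, every group had been through the same stain and sort, and each tumour type was represented by 1 line. The final concentration of NIF in these cultures is not given in the sources used here. The paper reports G2/M arrest under NIF in ALDHbr but not ALDHneg SUM159 cells. It also reports higher expression of genes related to G2/M in NIF-treated than in untreated ALDHbr cells. The comparison here asks whether the RNA of these 10 genes, and not of the paper's gene set, differed with NIF. Because the sort came after the drug, a difference between NIF and DMSO within a sort can include a change in which cells entered the gate.

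Cells enter mitosis when CDK1, bound to cyclin B (CCNB1 and CCNB2), is switched on, and cyclin A (CCNA2) serves CDK1 and CDK2 before that step. WEE1 holds CDK1 off by phosphorylating it, and the phosphatase CDC25C removes that mark. PLK1 and AURKA promote the switch and build the spindle, while AURKB works with survivin (BIRC5) in the chromosomal passenger complex, which controls chromosome attachment and cytokinesis. In proliferating cells the RNA of most of these genes is low in G1 and high in G2 and mitosis, under repression by the DREAM complex and activation by B-MYB and FOXM1, whose target promoters often carry a CHR element (TTTGAA) near the start and CCAAT boxes, bound by NF-Y, upstream of it. The libraries are bulk RNA, so fewer cells in G2 or mitosis and less RNA of a gene per cell cannot be told apart.

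The stretches below all hold CCAAT, and those of CDK1, CCNB2, PLK1 and CDC25C also hold TTTGAA. They are shown because CDK1 holds both, while in SW620 under NIF its RNA differed less from DMSO than that of the other 5 genes shown. Each holds the 130 bases before a start site, 5' to 3' on the gene's strand, from RefSeq windows on GRCh38.p14 that run from 250 bases before to 50 after a start, and the capitals mark TTTGAA and CCAAT on either strand (TTCAAA and ATTGG on the opposite one). CDK1 and CDC25C have several windows, and the one with both motifs before the start was picked. Neither motif was in the 130 bases before another CDK1 start (60778201 to 60778330). The same held before 2 other CDC25C starts (138338342 to 138338471 and 138338356 to 138338485). The windows of CCNB1, CCNA2 and AURKB held no TTTGAA, and AURKB is not shown.
CDK1, chr10:60778348-60778477, plus strand: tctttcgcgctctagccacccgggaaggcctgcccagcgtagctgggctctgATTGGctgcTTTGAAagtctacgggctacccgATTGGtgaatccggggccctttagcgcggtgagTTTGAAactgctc
CCNB2, chr15:59105016-59105145, plus strand: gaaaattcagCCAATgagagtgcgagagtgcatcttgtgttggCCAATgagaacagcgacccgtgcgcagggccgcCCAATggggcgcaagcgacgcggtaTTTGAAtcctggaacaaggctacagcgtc
PLK1, chr16:23678759-23678888, plus strand: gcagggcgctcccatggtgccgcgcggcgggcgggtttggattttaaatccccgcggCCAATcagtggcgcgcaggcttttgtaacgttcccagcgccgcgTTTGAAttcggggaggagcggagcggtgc
CDC25C, chr5:138331805-138331934, minus strand: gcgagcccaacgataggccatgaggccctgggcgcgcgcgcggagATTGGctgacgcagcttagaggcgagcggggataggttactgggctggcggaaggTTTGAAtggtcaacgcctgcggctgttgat
CCNB1, chr5:69167020-69167149, plus strand: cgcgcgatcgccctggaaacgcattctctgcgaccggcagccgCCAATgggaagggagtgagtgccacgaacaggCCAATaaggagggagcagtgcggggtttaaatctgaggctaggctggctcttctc
CCNA2, chr4:121823884-121824013, minus strand: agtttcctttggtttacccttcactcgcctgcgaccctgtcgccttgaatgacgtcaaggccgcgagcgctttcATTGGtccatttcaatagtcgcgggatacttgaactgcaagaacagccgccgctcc

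TTTGAA lay 29 bases before both the CCNB2 and the PLK1 start. In the stretches shown it lay 13 and 69 bases before the CDK1 start and 30 bases before the CDC25C start. CDK1 has 2 windows and CDC25C has 4, so the distances for these 2 genes are from only 1 of their starts. CCAAT lay 120, 87 and 54 bases before the CCNB2 start on the gene's strand and 87 and 55 bases before that of CCNB1. Windows were found for 7 of the 10 genes, the exceptions being AURKA, BIRC5 and WEE1. TTTGAA was in a window of 4 of these 7 genes (CDK1, CCNB2, PLK1 and CDC25C) and of 18.2% of all 27305 genes with a window, and CCAAT was in a window of 7 of 7 genes and of 39.7% of all genes. Counted by window, TTTGAA was in 6 of the 12 windows of these genes and 15.2% of all 35116 windows, CCAAT in 10 of 12 and 34.6%, and both motifs in 6 of 12 and 5.9%. A match describes letters in a window and does not show that a factor binds there.

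The libraries held 30253187 to 43127948 counts, with a median of 36520935, and a member gene had between 302 and 16274 counts in a library. Levels below are CPM, counts scaled to a common library total after TMM scaling within each line. They compare libraries, not genes, since gene length was not taken into account. In SUM159, ALDH1A1, whose product gives most ALDH activity in many stem-like cells, was at 135 ± 27.7 CPM (SD, n = 3) in ALDHbr and 0.480 ± 0.0618 CPM in ALDHneg libraries under DMSO, and in SW620 it was at 1314 ± 51.3 and 901 ± 19.3 CPM. ALDH1A3, a second enzyme of the family, was at 138 ± 5.35 CPM in SW620 ALDHbr and 177 ± 4.66 CPM in SW620 ALDHneg under DMSO and below 1 CPM in SUM159. Of 10 colon epithelial markers 8 were below 1 CPM in every SUM159 group, and of 10 mesenchymal markers 4, VIM, ZEB1, SPARC and COL5A1, were below 1 CPM in every SW620 group, as was the colon marker CDX1. One library, replicate 2 of SW620 ALDHbr under DMSO, stood apart from the others of its group, with chi-square values per gene of 33.5 and 43.1 against its fellows and at most 28.3 for any other pair of replicates. The 28.3 was between NIF replicates 1 and 3 of SW620 ALDHbr. Over genes, their deviations from their group mean correlated with those of this DMSO library at r = 0.76 and -0.78. Counts of member and list genes called that use the library that stood apart are also given without it, mostly without the matching count over all genes.

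NIF lowered the RNA of 8 of the 10 genes in SW620 ALDHbr cells and of 9 of the 10 in SW620 ALDHneg cells. The falls were largest for AURKA and BIRC5, which lost 39.7% and 42.9% of their level in ALDHbr and 46.4% and 45.5% in ALDHneg cells. CDK1 was called in ALDHneg alone, at a log2 fold change of -0.15, and WEE1 in neither sort. These counts stand beside a broad response, since 43.3% of all 13953 genes tested were called in SW620 ALDHbr (21.9% lower) and 45.1% in SW620 ALDHneg (22.7% lower) by edgeR's quasi-likelihood test at a Benjamini-Hochberg adjusted p under 0.05. The median log2 fold change over the 10 genes was -0.55 in ALDHbr and -0.71 in ALDHneg, against -0.0070 and -0.0076 over all genes tested. With library-size scaling in place of TMM the split of all genes called in ALDHneg moved from 3172 lower and 3114 higher to 3957 and 2578. In 8 genes in ALDHbr and 9 in ALDHneg, those called, the 3 NIF libraries lay below the 3 DMSO libraries, which was also so for 22.5% of all genes in ALDHbr and 32.0% in ALDHneg.

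**Figure D1:**
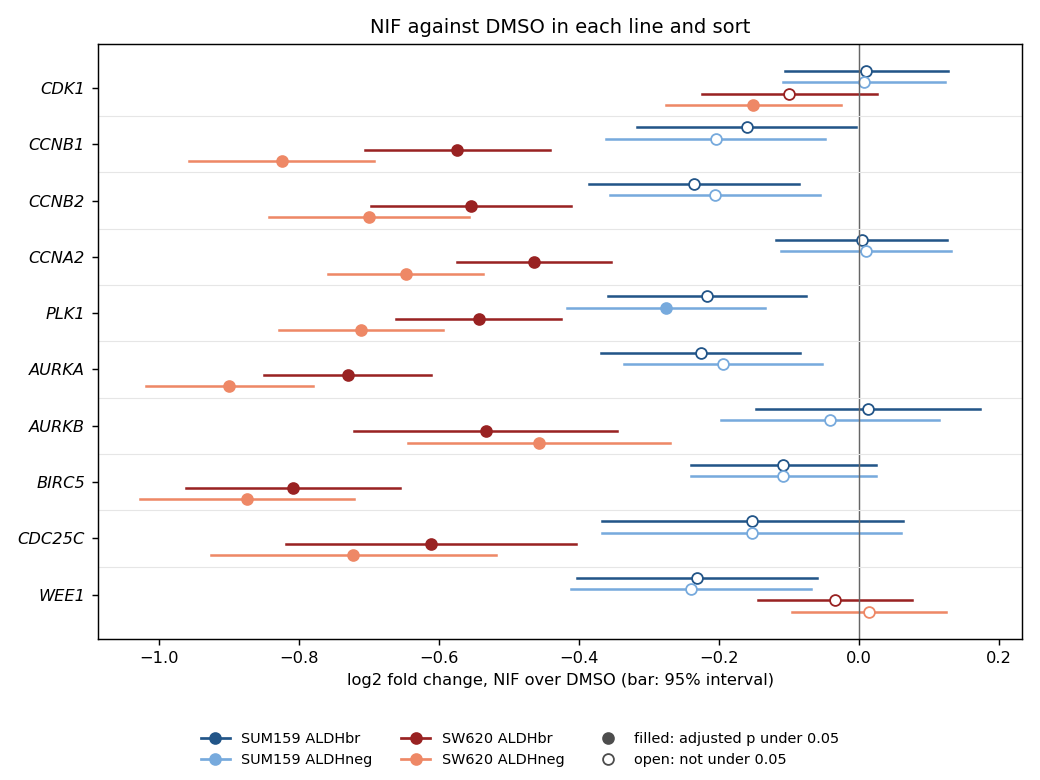
Log2 fold change of each gene under NIF against DMSO (x axis) in the 4 combinations of line and sort (colours), with bars for the 95% interval and filled points for an adjusted p under 0.05. The SW620 points lie left of both SUM159 points for 9 genes, WEE1 excepted, while the SW620 intervals of WEE1 cross 0.

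Among the kinase and its cyclins, the cyclins fell in both sorts and CDK1 was called in ALDHneg cells alone. CCNB1 was at 305, 257 and 298 CPM under DMSO and 184, 194 and 200.3 CPM under NIF in SW620 ALDHbr cells, and at 315, 305 and 315 CPM and 175, 179 and 173 CPM in ALDHneg cells. Cyclin B1, the cyclin that carries CDK1 into mitosis, was thus lower in every NIF library than in any DMSO library of its sort, with a lower DMSO value in the ALDHbr replicate that stood apart. For CCNB1, the log2 fold change was -0.57 ± 0.06 (SE, adjusted p = 4.57e-06) in ALDHbr and -0.83 ± 0.06 (SE, adjusted p = 1.07e-07) in ALDHneg. CCNB2 was at 171, 144 and 169 CPM under DMSO and 104, 109 and 116 CPM under NIF in SW620 ALDHbr cells, and at 166, 169.7 and 173 CPM and 101, 107 and 105 CPM in ALDHneg cells. For CCNB2, the log2 fold change was -0.55 ± 0.07 (SE, adjusted p = 1.28e-05) in ALDHbr and -0.70 ± 0.07 (SE, adjusted p = 1.10e-06) in ALDHneg. For cyclin B2 the groups were also apart in both sorts. CCNA2 was at 169, 171 and 157 CPM under DMSO and 122, 122 and 117 CPM under NIF in SW620 ALDHbr cells, and at 179.8, 188 and 197 CPM and 119, 122 and 120.0 CPM in ALDHneg cells. For CCNA2, the log2 fold change was -0.46 ± 0.05 (SE, adjusted p = 6.16e-06) in ALDHbr and -0.65 ± 0.05 (SE, adjusted p = 1.91e-07) in ALDHneg. The 6 NIF values of cyclin A2 lay between 117 and 122 CPM and the 6 DMSO values between 157 and 197 CPM. CDK1 was at 168, 151 and 153 CPM under DMSO and 136, 149.8 and 154 CPM under NIF in SW620 ALDHbr cells, and at 147, 156 and 153 CPM and 137, 137 and 137 CPM in ALDHneg cells. In ALDHbr cells the CDK1 groups overlapped and in ALDHneg cells they did not. For CDK1, the log2 fold change was -0.10 ± 0.06 (SE, adjusted p = 0.186) in ALDHbr and -0.15 ± 0.06 (SE, adjusted p = 0.048) in ALDHneg. The 95% interval of the CDK1 change was -0.22 to 0.03 in ALDHbr cells. The call in ALDHneg cells was lost when any 1 of the 6 libraries was left out (adjusted p = 0.0542 to 0.159), with size factors from DESeq2 (0.0567), without the filter on low counts (0.094) and in the fit of all 24 libraries (0.053).

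The 2 members that act on the inhibitory mark of CDK1 differed. CDC25C was at 22.7, 20.1 and 24.4 CPM under DMSO and 12.8, 15.2 and 16.1 CPM under NIF in SW620 ALDHbr cells, and at 25.9, 23.7 and 25.6 CPM and 16.4, 15.3 and 13.9 CPM in ALDHneg cells. CDC25C, the activating phosphatase, had the lowest counts of the 10 genes and did not overlap between treatments in either sort. For CDC25C, the log2 fold change was -0.61 ± 0.10 (SE, adjusted p = 1.57e-04) in ALDHbr and -0.72 ± 0.09 (SE, adjusted p = 2.57e-05) in ALDHneg. WEE1 was at 62.5, 61.6 and 60.0 CPM under DMSO and 59.3, 57.8 and 62.7 CPM under NIF in SW620 ALDHbr cells, and at 52.3, 53.4 and 53.8 CPM and 55.7, 52.8 and 52.6 CPM in ALDHneg cells. For WEE1, the inhibitory kinase, the groups overlapped in both sorts. For WEE1, the log2 fold change was -0.03 ± 0.05 (SE, adjusted p = 0.621) in ALDHbr and 0.01 ± 0.05 (SE, adjusted p = 0.842) in ALDHneg. Its 95% intervals, -0.14 to 0.08 and -0.10 to 0.12, give the size of change that these libraries allow. With library-size scaling in place of TMM the ALDHneg value turned to -0.05.

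The kinases upstream and downstream of the switch fell in both sorts. PLK1 was at 225, 207 and 231 CPM under DMSO and 149.7, 146 and 159.5 CPM under NIF in SW620 ALDHbr cells, and at 257, 241 and 244 CPM and 151, 153 and 149 CPM in ALDHneg cells. For PLK1, the log2 fold change was -0.54 ± 0.05 (SE, adjusted p = 2.43e-06) in ALDHbr and -0.71 ± 0.05 (SE, adjusted p = 1.38e-07) in ALDHneg. AURKA was at 216, 194 and 223 CPM under DMSO and 123, 128 and 131 CPM under NIF in SW620 ALDHbr cells, and at 229.6, 227 and 218 CPM and 120.0, 121 and 121 CPM in ALDHneg cells. AURKA, the centrosomal kinase that activates PLK1, did not overlap between treatments in either sort. For AURKA, the log2 fold change was -0.73 ± 0.06 (SE, adjusted p = 1.58e-07) in ALDHbr and -0.90 ± 0.06 (SE, adjusted p = 1.65e-08) in ALDHneg. AURKB was at 64.2, 52.2 and 61.7 CPM under DMSO and 37.5, 40.1 and 45.5 CPM under NIF in SW620 ALDHbr cells, and at 56.4, 57.5 and 56.3 CPM and 41.3, 44.6 and 38.2 CPM in ALDHneg cells. The lowest DMSO value of AURKB, in the ALDHbr replicate that stood apart, was still above the highest NIF value. For AURKB, the log2 fold change was -0.53 ± 0.09 (SE, adjusted p = 2.25e-04) in ALDHbr and -0.46 ± 0.09 (SE, adjusted p = 6.74e-04) in ALDHneg. BIRC5 was at 167, 138 and 165 CPM under DMSO and 84.0, 90.1 and 94.4 CPM under NIF in SW620 ALDHbr cells, and at 156, 149 and 145 CPM and 81.2, 84.7 and 80.1 CPM in ALDHneg cells. BIRC5, which encodes survivin, the inhibitor of apoptosis that sits with AURKB in the passenger complex, was at most 94.4 CPM in the 6 NIF libraries and at least 138 CPM in the 6 DMSO libraries. For BIRC5, the log2 fold change was -0.81 ± 0.07 (SE, adjusted p = 6.73e-07) in ALDHbr and -0.87 ± 0.07 (SE, adjusted p = 2.53e-07) in ALDHneg.

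**Figure D2:**
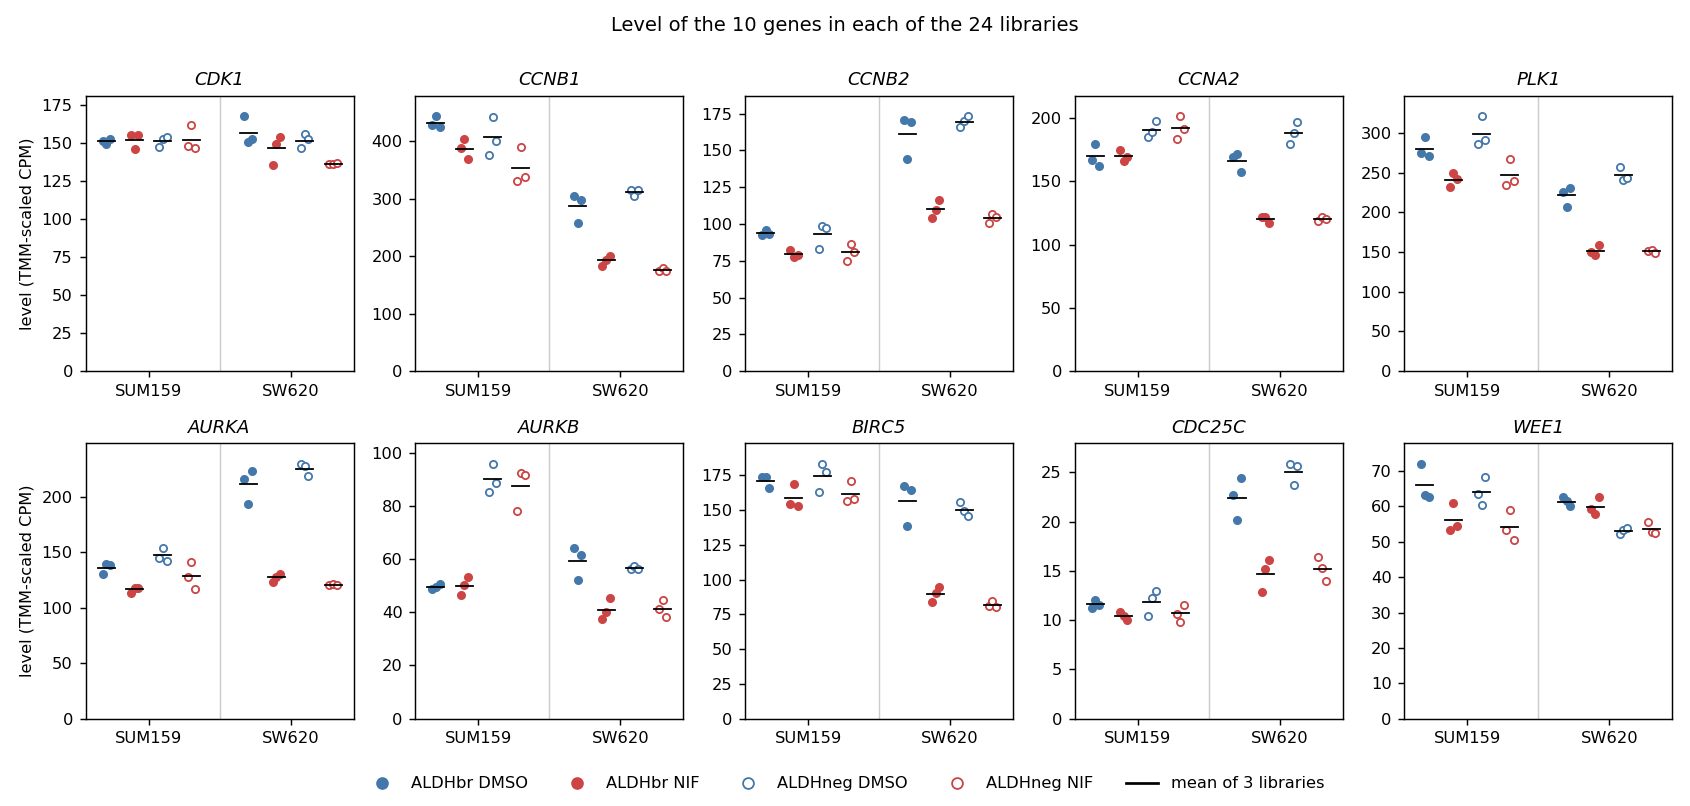
Level of each gene (y axis, CPM, from 0) in each of the 24 libraries, by line, with filled points for ALDHbr, open points for ALDHneg, blue for DMSO, red for NIF, and bars for group means. In SW620 the red points of 8 genes lie below the blue ones, while those of CDK1 and WEE1 lie at almost the same height, and AURKB in SUM159 separates by sort.

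Without the SW620 ALDHbr DMSO replicate that stood apart, 8 genes were still called in ALDHbr cells, with log2 fold changes from -0.88 (BIRC5) to -0.43 (CCNA2). The summed level of the mesenchymal markers moved with the treatment in SW620: it was 538 to 602 CPM under DMSO and 791 to 893 CPM under NIF in ALDHbr, and 657 to 700.1 and 933 to 949 CPM in ALDHneg, with 4 of 8 markers tested higher and 2 lower in ALDHbr and 4 of 8 markers tested higher and 2 lower in ALDHneg. The sum over 10 colon markers was 8908 to 10580.1 and 8408 to 9614 CPM in ALDHbr, and 9154 to 9573 and 8330.1 to 8545 CPM in ALDHneg, with 2 of 10 markers tested higher and 5 lower in ALDHbr and 2 of 10 markers tested higher and 4 lower in ALDHneg. Of all genes tested, 21.4% were called higher and 21.9% lower in ALDHbr, and 22.3% and 22.7% in ALDHneg. The mesenchymal marker ZEB1, called higher in ALDHneg, was below 1 CPM in every SW620 group. ALDH1A1, the sort's own enzyme, was also lower under NIF in SW620, at 955 ± 31.8 CPM in ALDHbr and 549 ± 13.4 CPM in ALDHneg cells. The part of these shifts in the falls of the 10 genes was not tested.

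In SUM159 NIF gave small differences. In ALDHbr cells 0 of the 10 genes were called by edgeR, beside 3.16% of all 14953 genes tested (2.23% lower). At an unadjusted p under 0.05 there were 5, for which the share of all genes is not given here. DESeq2 called 3, CCNB2, PLK1 and AURKA, as lower, beside 875 of all genes called in either direction. In ALDHneg cells edgeR called 1, PLK1, as lower, beside 3.30% of all genes (2.20% lower), and DESeq2 called 1, beside 884 of all genes. The median log2 fold change over the 10 genes was -0.16 in ALDHbr and -0.17 in ALDHneg, against -0.0029 and 0.0033 over all genes. In SUM159 the replicate numbers paired the libraries, and with the number as a block edgeR called 5 genes lower in each sort: CCNB1, CCNB2, PLK1, AURKA and WEE1. All genes called rose with it, from 473 to 1994 in ALDHbr and from 493 to 1970 in ALDHneg.

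PLK1 had the lowest adjusted p of the 10 genes in SUM159 ALDHneg. PLK1 was at 274, 295 and 271 CPM under DMSO and 231, 249 and 242 CPM under NIF in SUM159 ALDHbr cells, and at 286, 321 and 291 CPM and 235, 267 and 239.7 CPM in ALDHneg cells. The NIF values lay below the DMSO values in both sorts. For PLK1, the log2 fold change was -0.22 ± 0.07 (SE, adjusted p = 0.0935) in ALDHbr and -0.28 ± 0.07 (SE, adjusted p = 0.0341) in ALDHneg. With the block the PLK1 values were -0.22 (adjusted p = 0.00128) and -0.28 (adjusted p = 1.07e-04). Without the block the ALDHneg call was lost when any 1 of 5 of the 6 libraries was left out (adjusted p = 0.0576 to 0.153), the exception being NIF replicate 2. AURKA was at 130.1, 139 and 139 CPM under DMSO and 113, 118 and 118 CPM under NIF in SUM159 ALDHbr cells, and at 145, 154 and 142 CPM and 127, 141 and 117 CPM in ALDHneg cells. For AURKA, the log2 fold change was -0.23 ± 0.07 (SE, adjusted p = 0.0827) in ALDHbr and -0.19 ± 0.07 (SE, adjusted p = 0.135) in ALDHneg. AURKA was thus lower in every NIF library in both sorts, and with the block its values were -0.23 (adjusted p = 0.00452) and -0.20 (adjusted p = 0.0116). CCNB2 was at 92.7, 95.6 and 92.9 CPM under DMSO and 82.6, 77.5 and 78.6 CPM under NIF in SUM159 ALDHbr cells, and at 83.2, 98.4 and 97.3 CPM and 74.6, 86.0 and 81.3 CPM in ALDHneg cells. In ALDHneg cells the lowest DMSO library overlapped with the NIF libraries. For CCNB2, the log2 fold change was -0.24 ± 0.07 (SE, adjusted p = 0.0883) in ALDHbr and -0.21 ± 0.07 (SE, adjusted p = 0.139) in ALDHneg.

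CCNB1 was at 429, 444 and 425 CPM under DMSO and 388, 404 and 369 CPM under NIF in SUM159 ALDHbr cells, and at 377, 443 and 401 CPM and 331, 389.7 and 338 CPM in ALDHneg cells. For CCNB1, the log2 fold change was -0.16 ± 0.07 (SE, adjusted p = 0.282) in ALDHbr and -0.21 ± 0.07 (SE, adjusted p = 0.156) in ALDHneg. With the block, CCNB1 gave -0.16 (adjusted p = 0.0228) and -0.21 (adjusted p = 0.00436), and CCNB2 gave -0.23 (adjusted p = 0.00826) and -0.21 (adjusted p = 0.0189). WEE1 was at 72.1, 63.2 and 62.5 CPM under DMSO and 53.2, 60.9 and 54.4 CPM under NIF in SUM159 ALDHbr cells, and at 63.5, 60.3 and 68.5 CPM and 53.4, 59.0 and 50.4 CPM in ALDHneg cells. For WEE1, the log2 fold change was -0.23 ± 0.08 (SE, adjusted p = 0.14) in ALDHbr and -0.24 ± 0.08 (SE, adjusted p = 0.128) in ALDHneg. WEE1 therefore did not overlap between treatments in SUM159 in either sort, and with the block its values were -0.23 (adjusted p = 0.03) and -0.24 (adjusted p = 0.0232). NIF libraries lay below DMSO libraries without overlap for 6 of the 10 genes in ALDHbr (12.2% of all genes) and for 3, PLK1, AURKA and WEE1, in ALDHneg (10.1% of all genes).

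The other 5 members were not called in SUM159, with or without the block. CDK1 ranged over 146 to 162 CPM in the 12 libraries, and its log2 fold changes were 0.01 ± 0.05 (SE, adjusted p = 0.953) in ALDHbr and 0.01 ± 0.05 (SE, adjusted p = 0.969) in ALDHneg. CCNA2 gave 0.0033 ± 0.06 (SE, adjusted p = 0.987) and 0.01 ± 0.06 (SE, adjusted p = 0.962), and AURKB gave 0.01 ± 0.08 (SE, adjusted p = 0.956) and -0.04 ± 0.07 (SE, adjusted p = 0.837). The 95% intervals of these 3 genes lay between -0.20 and 0.17. BIRC5 ranged over 153 to 183 CPM, with changes of -0.11 ± 0.06 (SE, adjusted p = 0.41) and -0.11 ± 0.06 (SE, adjusted p = 0.416). CDC25C ranged over 9.80 to 13.0 CPM, with changes of -0.15 ± 0.10 (SE, adjusted p = 0.491) and -0.15 ± 0.10 (SE, adjusted p = 0.487). The groups of BIRC5 overlapped in both sorts, and those of CDC25C only in ALDHneg cells.

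The NIF effect on the mitotic genes differed between the lines. In a fit of all 24 libraries, the change in SW620 minus the change in SUM159 was called for 8 of the 10 genes in ALDHbr and 8 in ALDHneg, each time with the lower log2 fold change in SW620, beside 23.1% of 16271 genes in ALDHbr (10.7% lower) and 22.4% in ALDHneg (10.5% lower). BIRC5 had the largest differences, at -0.70 ± 0.10 (SE, adjusted p = 9.23e-06) and -0.76 ± 0.10 (SE, adjusted p = 2.69e-06) on the log2 scale in ALDHbr and ALDHneg. In the same order of sorts, the differences were -0.51 ± 0.09 (SE, adjusted p = 2.04e-04) and -0.70 ± 0.09 (SE, adjusted p = 3.20e-06) for AURKA, -0.55 ± 0.12 (SE, adjusted p = 0.00173) and -0.41 ± 0.12 (SE, adjusted p = 0.0146) for AURKB, and -0.47 ± 0.08 (SE, adjusted p = 7.79e-05) and -0.65 ± 0.08 (SE, adjusted p = 8.86e-07) for CCNA2. For CCNB1 they were -0.41 ± 0.10 (SE, adjusted p = 0.00367) and -0.61 ± 0.10 (SE, adjusted p = 6.49e-05), and for CCNB2 -0.32 ± 0.10 (SE, adjusted p = 0.0222) and -0.49 ± 0.10 (SE, adjusted p = 7.88e-04). CDC25C gave -0.46 ± 0.14 (SE, adjusted p = 0.0173) and -0.56 ± 0.14 (SE, adjusted p = 0.00377), and PLK1 -0.33 ± 0.09 (SE, adjusted p = 0.00936) and -0.43 ± 0.09 (SE, adjusted p = 9.31e-04). Without the SW620 ALDHbr DMSO replicate that stood apart, 8 genes were still called in ALDHbr, from -0.78 for BIRC5 and -0.63 for AURKB to -0.39 for CCNB2 and -0.37 for PLK1. CDK1 and WEE1 were not called. The CDK1 difference was -0.11 ± 0.08 (SE, adjusted p = 0.361) and -0.15 ± 0.08 (SE, adjusted p = 0.201). The WEE1 difference had the opposite sign, with 0.20 ± 0.10 (SE, adjusted p = 0.164) and 0.26 ± 0.10 (SE, adjusted p = 0.058). In ALDHneg, library-size scaling called CDK1 (-0.21, adjusted p = 0.0395) and DESeq2 called WEE1 (0.27, adjusted p = 0.0328), which was also called without SUM159 DMSO replicate 2 or SUM159 NIF replicate 2. In ALDHbr the CCNB2 call was lost without SUM159 NIF replicate 1 (-0.28), SW620 NIF replicate 1 (-0.29), or SW620 DMSO replicate 1 (-0.28) or 3 (-0.29). The CDC25C call was lost there without replicate 1 of SUM159 NIF (-0.41), SUM159 DMSO (-0.42) or SW620 NIF (-0.37), or replicate 3 of SW620 DMSO (-0.40). In ALDHneg the AURKB call was lost without SW620 NIF replicate 3 (-0.35). The labels name no processing batch, so line and any batch that ran with it cannot be told apart. The final NIF concentration in each line is not given in the sources used here, so line and dose cannot be told apart either.

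Whether NIF acted differently on the genes in ALDHbr and ALDHneg cells was tested within each line. In SUM159 0 of the 10 genes were called by edgeR, 0 had an unadjusted p under 0.05 and DESeq2 called 0, with 0% of all genes called and differences between -0.03 and 0.06. In SW620 0 of the 10 were called, 4 had an unadjusted p under 0.05 and DESeq2 called 0, with 0.00717% of all genes called. The share of all genes at that unadjusted p is not given here. The 4 genes had smaller falls in ALDHbr than in ALDHneg cells, with a difference of 0.25 ± 0.09 (SE, adjusted p = 0.673) for CCNB1, 0.18 ± 0.07 (SE, adjusted p = 0.8) for CCNA2, 0.17 ± 0.08 (SE, adjusted p = 0.9) for AURKA and 0.17 ± 0.08 (SE, adjusted p = 0.9) for PLK1. The 95% interval of the CCNB1 difference was 0.06 to 0.44. Without the DMSO replicate that stood apart they were 0.19, 0.21, 0.12 and 0.13, with adjusted p from 0.162 to 0.324.

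Between the sorts themselves, AURKB was the member that differed most. In SUM159 under DMSO it was at 48.7, 49.6 and 50.5 CPM in ALDHbr libraries and 85.4, 95.9 and 88.7 CPM in ALDHneg libraries. Under NIF the values were 46.6, 50.4 and 53.2 CPM in ALDHbr and 78.2, 92.4 and 91.8 CPM in ALDHneg. The highest ALDHbr value of the 6 was below the lowest ALDHneg value. The log2 difference, ALDHbr minus ALDHneg, was -0.86 ± 0.07 (SE, adjusted p = 8.17e-07) under DMSO and -0.80 ± 0.07 (SE, adjusted p = 1.68e-06) under NIF, and it was called in every alternative fit and with every library left out. In SW620 AURKB was at 64.2, 52.2 and 61.7 CPM in ALDHbr and 56.4, 57.5 and 56.3 CPM in ALDHneg under DMSO, and the groups overlapped, with log2 differences of 0.07 ± 0.09 (SE, adjusted p = 0.627) under DMSO and -0.01 ± 0.09 (SE, adjusted p = 0.956) under NIF. Whether the sorts' AURKB difference itself differed between the lines was not tested. BIRC5, the partner of AURKB, was not called between the sorts in either line or treatment.

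**Figure D3:**
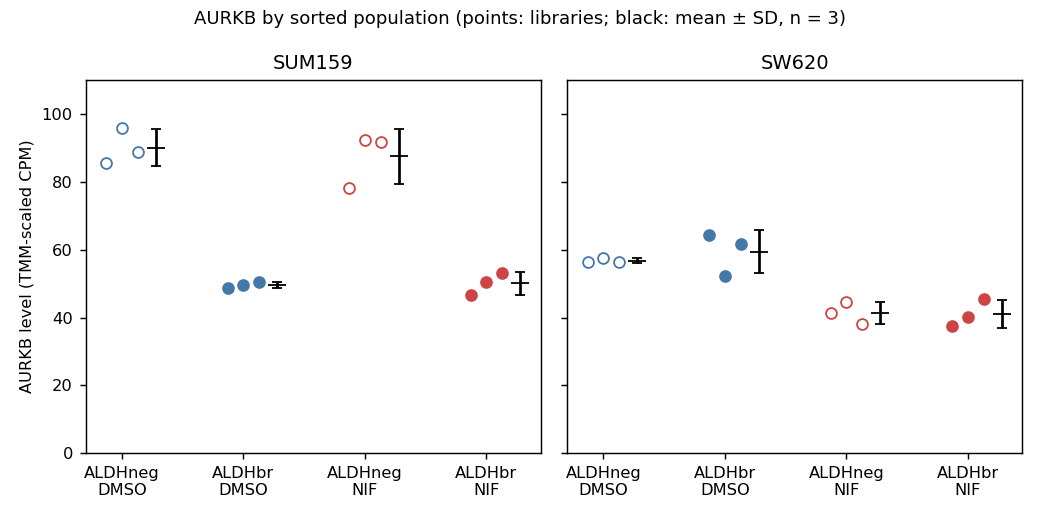
AURKB level (y axis, CPM, from 0) in each library of SUM159 (left) and SW620 (right), by sort and treatment on the x axis, with black bars for the mean ± SD of 3 libraries. The 6 ALDHbr libraries of SUM159 lie at 46.6 to 53.2 CPM and its 6 ALDHneg libraries at 78.2 to 95.9 CPM, while in SW620 the sorts overlap and the treatments separate.

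The other members differed little between sorts. In SUM159 2 of the 10 genes were called under DMSO, AURKB and CCNA2, both lower in ALDHbr, beside 23.0% of all genes (12.3% lower), and the same pair under NIF, beside 21.9% (12.0% lower). CCNA2 was at 167, 179 and 162 CPM in ALDHbr and 185, 189 and 198 CPM in ALDHneg under DMSO, with a log2 difference of -0.17 ± 0.06 (SE, adjusted p = 0.0441), and under NIF the difference was -0.18 ± 0.06 (SE, adjusted p = 0.0388). The CCNA2 call was lost in 5 of 6 fits that left out a library under DMSO (adjusted p = 0.0569 to 0.176) and in 5 of 6 under NIF (0.0575 to 0.141). With the block, 4 members were called under NIF, beside 5270 of the 14953 genes tested. CCNB1 was then higher in ALDHbr, at 0.14 (adjusted p = 0.0259), and AURKA lower, at -0.14 (adjusted p = 0.035), beside CCNA2, at -0.17 (adjusted p = 0.00747), and AURKB, at -0.80 (adjusted p = 7.88e-11). In SW620 under DMSO, CCNA2 was lower in ALDHbr, at -0.18 ± 0.05 (SE, adjusted p = 0.0366), and WEE1 higher, at 0.21 ± 0.05 (SE, adjusted p = 0.0207), beside 11.3% of all genes called (5.86% lower and 5.45% higher). WEE1 was at 62.5, 61.6 and 60.0 CPM in ALDHbr and 52.3, 53.4 and 53.8 CPM in ALDHneg, without overlap. Both calls were lost in 4 of the 6 fits that left out a library, with adjusted p of 0.0753 to 0.144 for CCNA2 and 0.065 to 0.0912 for WEE1. Both were kept without the DMSO replicate that stood apart, but all genes called then rose from 1577 to 5487. Under NIF 0 members were called in SW620 by edgeR, 1 had an unadjusted p under 0.05 and DESeq2 called 0, beside 6.67% of all genes called. That gene was WEE1, at 0.16 ± 0.05 (SE, adjusted p = 0.0878).

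WEE1 and CDC25C act on the same site of CDK1 in opposite directions, so their log2 CPM difference was taken in each library. It does not depend on how the library is scaled. In SW620 ALDHbr it was 1.46, 1.61 and 1.30 under DMSO and 2.20, 1.92 and 1.96 under NIF. In SW620 ALDHneg it was 1.01, 1.17 and 1.07 under DMSO and 1.76, 1.79 and 1.91 under NIF. Every NIF library of SW620 thus lay above every DMSO library of its sort. The means differed by 0.57 (exact two-sided permutation p = 0.1) in ALDHbr and 0.74 (exact two-sided permutation p = 0.1) in ALDHneg, and 0.1 is the smallest p that 3 against 3 libraries can give. Without the DMSO replicate that stood apart the ALDHbr difference was 0.65. In SUM159 the difference was 2.68, 2.38 and 2.43 under DMSO and 2.29, 2.54 and 2.43 under NIF in ALDHbr, and 2.60, 2.30 and 2.39 and 2.32, 2.58 and 2.12 in ALDHneg. These groups overlapped, and the means differed by -0.08 (exact two-sided permutation p = 0.7) and -0.09 (exact two-sided permutation p = 0.7). In SW620 it was the CDC25C term that was called. RNA is what the libraries measure, not the phosphorylation of CDK1.

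**Figure D4:**
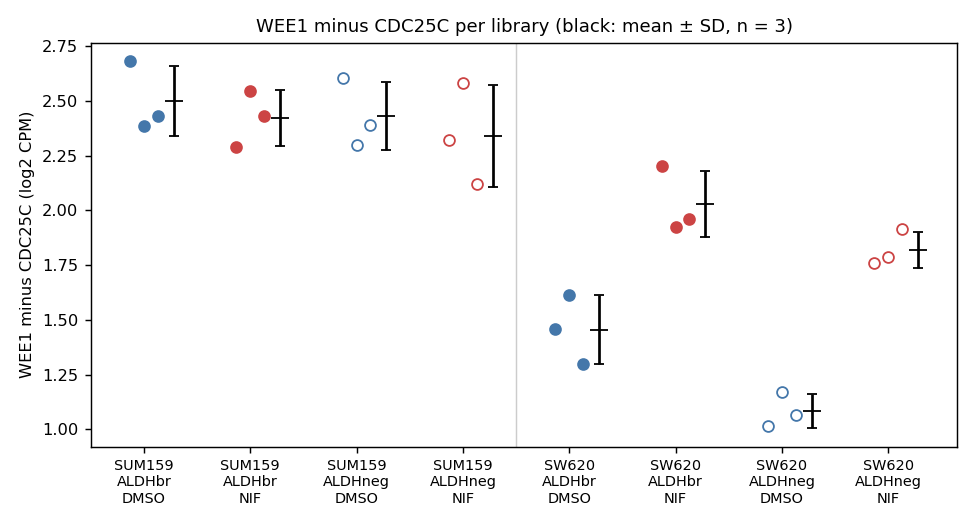
Log2 CPM of WEE1 minus log2 CPM of CDC25C (y axis) in each library of the 8 groups (x axis), with black bars for the mean ± SD of 3 libraries. The SW620 NIF libraries lie at 1.76 to 2.20, above the SW620 DMSO libraries of the same sort, while the SUM159 groups overlap.

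Genes that work with the 10 were described by list. Each edgeR count without the block and with all libraries is to be read against the share of all genes called under NIF. That share was 43.3% in SW620 ALDHbr (21.9% lower), 45.1% in SW620 ALDHneg (22.7% lower), 3.16% in SUM159 ALDHbr (2.23% lower) and 3.30% in SUM159 ALDHneg (2.20% lower). Counts at an unadjusted p under 0.05 have no such share here. Of the direct partners of mitotic entry (20 genes, of which CCNA1 was not tested in SW620), NIF gave 10 of 19 lower and 0 higher in SW620 ALDHbr and 8 of 19 lower and 1 higher in SW620 ALDHneg, with medians of -0.20 and -0.12. The 9 of 19 called in ALDHneg were a share close to that of all genes. GTSE1, a microtubule protein of G2 and mitosis, fell most in both, by 0.57 and 0.87 on the log2 scale, while CDK2 had the smallest called fall in ALDHbr, -0.20 (adjusted p = 0.00817), and CCNH, the cyclin of the CDK-activating kinase, was the called rise in ALDHneg, 0.24 (adjusted p = 0.0164). In SUM159 4 of 20 lower and 1 higher were called in ALDHbr and 2 of 20 lower and 1 higher in ALDHneg. With any 1 library left out the 4 lower in ALDHbr became 1, and the 2 lower in ALDHneg became 0 to 3. There CDC25A, the phosphatase of CDK2 and CDK1, rose, 0.29 (adjusted p = 0.00979) and 0.37 (adjusted p = 0.00181), and CCNB3, a cyclin of meiosis, fell, -0.48 (adjusted p = 0.00501) and -0.36 (adjusted p = 0.0276). Of the transcriptional regulators of these genes, 6 of 12 lower and 1 higher were called in SW620 ALDHbr and 7 of 12 lower and 1 higher in ALDHneg. TFDP1, the dimer partner of E2F factors, fell most in ALDHbr, -0.45 (adjusted p = 1.21e-06), and MYBL2, which encodes B-MYB, in ALDHneg, -0.50 (adjusted p = 1.91e-05), whereas LIN37, a subunit of the DREAM core, rose in both, 0.40 (adjusted p = 0.00244) and 0.36 (adjusted p = 0.00481). In SUM159 1 gene, E2F5, a repressor E2F, was called lower in ALDHbr, -0.38 (adjusted p = 0.0317), and 0 of 12 in ALDHneg by edgeR (2 at an unadjusted p under 0.05, 1 by DESeq2). With 1 library left out, the SUM159 calls of E2F5 in ALDHbr (6 of 6), MDM2 in ALDHbr (5 of 6), SFN in ALDHneg (5 of 6), CCNB3 in ALDHneg (4 of 6) and CDC25A in ALDHbr (1 of 6) were lost in the number of fits in parentheses. The CDC25A call was lost without SUM159 ALDHbr DMSO replicate 2 (0.27, adjusted p = 0.0509). The CCNH call was lost without SW620 ALDHneg NIF replicate 1 (0.22, adjusted p = 0.0611).

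The checkpoint genes moved apart in SW620. Of 12, 5 lower and 3 higher in ALDHbr and 5 lower and 3 higher in ALDHneg were called. CDKN1A, which encodes the CDK inhibitor p21, rose most, 1.91 (adjusted p = 4.11e-10) and 2.15 (adjusted p = 1.06e-10), and BTG2, an antiproliferative gene, fell most, -0.97 (adjusted p = 4.01e-07) and -0.82 (adjusted p = 2.63e-06). In SUM159 1 of 12 was called in each sort, MDM2, the ubiquitin ligase of p53, as lower in ALDHbr, -0.33 (adjusted p = 0.0439), and SFN, the 14-3-3 protein that can retain CDC25C and CDK1, as higher in ALDHneg, 0.36 (adjusted p = 0.0436). The anaphase-promoting complex, which ends mitosis by marking cyclins B and A for breakdown, gave 7 of 19 lower and 1 higher in SW620 ALDHbr and 9 of 19 lower and 4 higher in ALDHneg, of which the 8 of 19 called in ALDHbr were a share close to that of all genes. Its subunit CDC16 rose in both, 0.30 (adjusted p = 6.42e-04) and 0.38 (adjusted p = 8.09e-05), and the largest falls were those of ANAPC15, -0.69 (adjusted p = 3.06e-05), in ALDHbr and the activator CDC20, -0.73 (adjusted p = 5.02e-07), in ALDHneg. In SUM159 0 of 19 were called in either sort by edgeR (4 and 6 at an unadjusted p under 0.05, 1 and 2 by DESeq2).

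Genes of G1/S and S phase, given as a contrast to the mitotic genes, were called as 13 of 18 lower and 1 higher in SW620 ALDHbr and 10 of 18 lower and 2 higher in ALDHneg, with medians of -0.37 and -0.19 beside -0.55 and -0.71 for the 10 genes. GINS2, a subunit of the replicative helicase, fell most in ALDHbr, -0.72 (adjusted p = 1.48e-05), and TYMS, thymidylate synthase, in ALDHneg, -0.69 (adjusted p = 2.73e-06), while CCNE1, cyclin E1, rose in both, 0.34 (adjusted p = 8.56e-04) and 0.62 (adjusted p = 3.53e-06). In SUM159 0 of 18 were called in either sort by edgeR (7 and 2 at an unadjusted p under 0.05, 3 and 1 by DESeq2). With the replicate block, edgeR called 1131 of all genes lower and 863 higher in SUM159 ALDHbr, and 1058 and 912 in ALDHneg. Beside these, it called 9 lower and 2 higher of the mitotic entry partners in ALDHbr and 7 lower and 3 higher in ALDHneg. For the transcriptional regulators these counts were 2 lower and 1 higher and 2 lower and 0 higher, for the checkpoint genes 2 lower and 2 higher and 1 lower and 2 higher, for the anaphase-promoting complex 4 lower and 1 higher and 3 lower and 1 higher, and for the genes of G1/S and S phase 0 lower and 6 higher and 1 lower and 1 higher. Without the SW620 ALDHbr DMSO replicate that stood apart, the SW620 ALDHbr counts were 11 lower and 1 higher for the mitotic entry partners, 6 lower and 2 higher for the regulators, 5 lower and 4 higher for the checkpoint genes, 9 lower and 1 higher for the anaphase-promoting complex and 14 lower and 1 higher for G1/S and S phase. The share of all genes called in that fit is not given here. With a library left out in SW620 ALDHneg, the 5 checkpoint genes lower became 3 to 4 and the 4 genes of the anaphase-promoting complex higher became 2 to 4. The falls in SW620 thus included genes of both phases, and no test set the lists against each other.

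**Figure D5:**
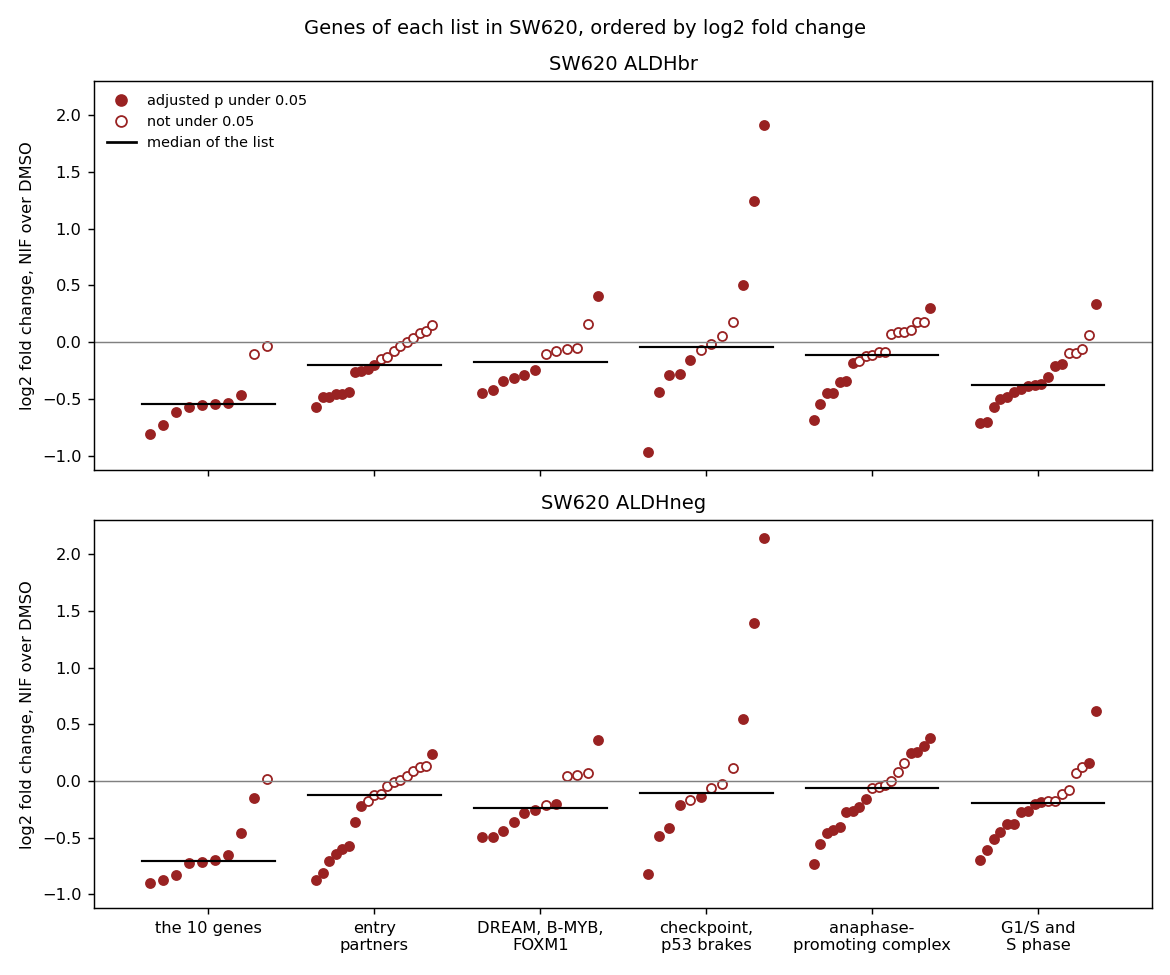
Log2 fold change under NIF against DMSO (y axis) of every tested gene in the 6 lists (x axis, genes ordered by value within a list) in SW620 ALDHbr (top) and ALDHneg (bottom), filled where the adjusted p was under 0.05, with a bar at each list's median. The 10 genes have the lowest medians, -0.55 and -0.71, and the highest points are CDKN1A at 1.91 and 2.15.

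The members resembled each other more in SW620 than in SUM159. After centring each gene within its line, the median correlation of a member's log2 CPM with the other 9 over the 12 SW620 libraries was between 0.921 and 0.966 for 8 genes, 0.713 for CDK1 and 0.0398 for WEE1, and over the 12 SUM159 libraries it was between 0.0954 (CDK1) and 0.734 (BIRC5). These correlations include the difference between treatments, and libraries share scaling and replicate structure, so they are given as a description. Among 10152 genes compared, the 5 genes outside the list closest to the mean profile of the 10 over all 24 libraries were CDCA8 (r = 0.983), which encodes borealin of the chromosomal passenger complex, PSRC1 (r = 0.976), a spindle protein, CDKN3 (r = 0.969), a phosphatase of CDK1 and CDK2, CDCA3 (r = 0.966), a trigger of WEE1 breakdown, and CDKN2C (r = 0.963), the inhibitor p18 of CDK4 and CDK6. Their correlations were 0.783 to 0.940 within SUM159 and 0.980 to 0.993 within SW620.

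On GRCh38.p14 the RefSeq genes lie at CDK1 (chromosome 10, 60778331 to 60794852), CCNB1 (chromosome 5, 69167150 to 69178245), CCNB2 (chromosome 15, 59105146 to 59125045), CCNA2 (chromosome 4, 121816444 to 121823883), PLK1 (chromosome 16, 23678889 to 23690367), AURKA (chromosome 20, 56369390 to 56392215), AURKB (chromosome 17, 8204731 to 8210575), BIRC5 (chromosome 17, 78214253 to 78225635), CDC25C (chromosome 5, 138285265 to 138338355) and WEE1 (chromosome 11, 9573670 to 9589985). The counts are per gene, and not split by exon or transcript. CCNA2 overlaps EXOSC9, PLK1 overlaps ERN2, and CDC25C overlaps FAM53C and LOC100128966, while CCNB1 and WEE1 each overlap 1 uncharacterised locus, so some reads of these 5 genes may belong to a neighbour. The kit marks strand, and whether the counting used it is not given in the sources used here.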

How the data were processed

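Total RNA of 24 sorted libraries was prepared with a stranded kit and sequenced. The authors deposited 1 table of raw counts per gene, unscaled, and per the submitters' processing notes FastQC, STAR and GRCh38 were used; the counting tool, the annotation and the strand setting are not given in the sources used here. Counts were fitted per cell line with edgeR 4.0.16 in R 4.3.3 (filterByExpr by group, TMM scaling, quasi-likelihood F test, Benjamini-Hochberg adjusted p under 0.05 over all genes tested, no minimum fold change). Differences between lines came from a fit of all 24 libraries. DESeq2 1.42.0, other scalings, no filter, a replicate block and leaving out each library were alternatives. The test was checked on simulated libraries without replicate pairing, which does not show its power for changes as small as those in SUM159. Log2 CPM used a prior count of 2.

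Samples were grouped by line, ALDH sort and treatment from their labels. In SUM159 the deviations of libraries with the same replicate number from their group means correlated in 18 of 18 pairs (r = 0.262 to 0.683), so the numbers pair these libraries, and blocked values stand beside results they change.

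The 10 genes and the gene and marker lists were chosen with earlier results of these data known. Named beside them were, in each list, the called genes with the highest and lowest log2 fold change in each NIF comparison, the 5 genes most like the mean profile of the 10 among genes with a mean of at least 1 log2 CPM in each line, and ALDH1A1 and ALDH1A3. Promoter sequences came from RefSeq, GRCh38.p14.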

Additional observations from a re-analysis of the deposited data

Results flagged for a closer look

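The NIF effect differed between the lines by a test of the difference itself, edgeR's quasi-likelihood test on all 24 libraries, for 8 of the 10 genes in each sort. In ALDHbr cells the log2 fold change in SW620 minus that in SUM159 was -0.41 for CCNB1, -0.32 for CCNB2, -0.47 for CCNA2, -0.33 for PLK1, -0.51 for AURKA, -0.55 for AURKB, -0.70 for BIRC5 and -0.46 for CDC25C. In ALDHneg cells it was -0.61 for CCNB1, -0.49 for CCNB2, -0.65 for CCNA2, -0.43 for PLK1, -0.70 for AURKA, -0.41 for AURKB, -0.76 for BIRC5 and -0.56 for CDC25C. Dixon's test for single outlying values was not run, since it was limited to groups of at least 4 samples.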

How the results depend on the processing

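In SW620 the 8 members lower under NIF in ALDHbr were 8 in every alternative, and the 9 in ALDHneg were 8 with any library left out. In SUM159 the members called under NIF went from 0 in ALDHbr to 2 with library-size scaling, 3 with DESeq2, 1 in the fit of all 24 libraries and 5 with the replicate block, and from 1 in ALDHneg to 2 in the fit of all 24 libraries, 5 with the replicate block and 0 to 2 with a library left out. Between sorts, 2 became 1 in SUM159 without the filter on low counts under DMSO and 1 under NIF, 4 under NIF with the replicate block, and 1 to 2 with a library left out under either treatment. In SW620 under DMSO 2 became 1 without the filter, 1 in the fit of all 24 libraries, 1 with the replicate block and 0 to 2 with a library left out. The count for the line difference was 6 to 8 in ALDHbr and 7 to 9 in ALDHneg with a library left out. Replicate numbers did not pair the SW620 libraries (r over 0.1 in 4 of 18 pairs, range -0.66 to 0.52). SW620 pairs with unlike numbers gave r over 0.1 in 13 of 36, range -0.78 to 0.76, likeness that a block by number does not take up. The replicate block there moved all genes called from 6038 to 5705 in ALDHbr and from 6286 to 5978 in ALDHneg. It ended the SW620 calls of CDK1 in ALDHneg (-0.15, adjusted p = 0.0793) and of CCNA2 between sorts under DMSO (-0.18, adjusted p = 0.0668). Beside these and the SUM159 values given with the results, it changed no other call of the 10 genes.

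Library-size scaling turned 3 uncalled values, CCNA2 in SUM159 ALDHbr (-0.0030), WEE1 in SW620 ALDHneg (-0.0454) and AURKB between SW620 sorts under NIF (0.0032). With a library left out, sign changed in values near 0: in SUM159 ALDHbr CDK1 (-0.0054 to 0.0448), CCNA2 (-0.0265 to 0.0470) and AURKB (-0.0335 to 0.0635), in SUM159 ALDHneg CDK1 (-0.0371 to 0.0335), CCNA2 (-0.0237 to 0.0417) and AURKB (-0.0801 to 0.0338), in SW620 WEE1 in ALDHneg (-0.0130 to 0.0337) and AURKB between sorts under NIF (-0.0922 to 0.0460). The WEE1 minus CDC25C difference ranged from -0.14 to 0.0131 in SUM159 ALDHbr and from -0.21 to 0.0206 in ALDHneg. The cause of these shifts was not tested.

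Over all genes, the SUM159 counts moved most with the replicate block, from 473 to 1994 and 493 to 1970 under NIF and from 3432 to 5388 and 3281 to 5270 between sorts, and DESeq2 called 875 and 884 and the fit of all 24 libraries 725 and 743 under NIF. The block changed the split from 333 lower and 140 higher to 1131 and 863 in ALDHbr and from 329 and 164 to 1058 and 912 in ALDHneg. Library-size scaling changed it from 1702 and 1939 to 2335 and 1615 for the line difference in ALDHneg, and from 455 and 476 to 367 and 584 between SW620 sorts under NIF. Between SW620 sorts under DMSO 1577 genes became 5487 without ALDHbr DMSO replicate 2 and 712 to 772 without any other library. Under NIF, 931 between SW620 sorts became 494 to 996. Leaving out a library gave 222 to 322 genes in SUM159 ALDHbr and 192 to 584 in ALDHneg. The difference between sorts in the NIF effect called 1 gene in SW620, but 29 with DESeq2 and 27 without that replicate, and 0 in SUM159, but 6 with the replicate block, 3 without the filter and 2 with DESeq2. The lowest depth was 30253187 counts, and 3 libraries a group limit the precision.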
